A study of Mus musculus with 9 samples.

Results

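The transcriptional response to a frameshift form of human LMX1A was measured against empty vector in HEI-OC1 cells, an immortalised mouse line from the organ of Corti. The comparison rests on 6 of the 9 libraries of the series. In 3 libraries (EV) the cells had been transduced with the empty vector, and in 3 (c915dup) with LMX1A carrying the c915dup change, a duplication that shifts the reading frame. The remaining 3 libraries (WT) carried the wild-type gene. They entered the estimate of spread and are given where a level is set beside that of the wild type. All 9 libraries came from the same line, kept in the same medium, and the labels name neither clones nor separate cultures, so every p-value reflects nothing wider than the scatter of these 9 libraries, which may be technical. The c915dup libraries are called replicates 1, 3 and 4 after their columns, which name the group but not the sample.

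LMX1A is a LIM-homeodomain transcription factor that acts with LDB cofactors in the roof plate, in midbrain dopaminergic precursors and in the developing inner ear, and mutations in it cause hearing loss in people and in mice. Immediate early genes, such as those of the FOS, EGR and NR4A families, are transcribed within minutes of a growth factor, calcium or stress signal from factors already present in the cell. Their products include both activators and the inhibitors that switch the same signals off. Genes of sterol and fatty acid synthesis are driven together by the SREBP factors.

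Levels are in FPKM, fragment counts scaled to transcript length and library size. The table held 55451 genes, of which 11933 reached 1 FPKM in 3 or more libraries and entered the limma fit on log2(FPKM + 1). Libraries numbered 1 formed a block against the others, and genes with an adjusted p under 0.05 are said to have passed. Differences are c915dup minus EV on that log2 scale, with their SE, which understates changes of genes with low FPKM. Human LMX1A was listed at 0 in all 3 EV libraries and stood at 170, 150 and 149 FPKM in c915dup replicates 1, 3 and 4, beside 133, 132 and 131 FPKM in WT. Its level was thus higher in c915dup than in WT (log2 0.24, limma adjusted p = 0.021), but without the block that difference did not pass (adjusted p = 0.17). Mouse Lmx1a was listed at 0 in all 9 libraries.

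The label of a hair cell line was checked against hair cell markers. Of 28, 10 were listed at 0 in all 9 libraries, among them the hair cell transcription factors Atoh1 and Pou4f3, otoferlin (Otof) and prestin (Slc26a5), and Myo7a did not exceed 0.333 FPKM. Only Myo6, Cib2 and Whrn reached the level for testing. Of these only Whrn passed, higher in c915dup by 0.33 ± 0.07 without overlap of the groups (limma adjusted p = 0.025). Its call was lost without the block (adjusted p = 0.15) and held in 3 of 9 fits that left out a library. The summed level of the 28 was 13.9 to 15.2 FPKM in EV and 15.2 to 16.4 FPKM in c915dup. Libraries numbered 1 stood apart in each group: mitochondrially encoded genes took 4.36% to 5.49% of their FPKM against 1.69% to 2.17% elsewhere. The estimated depth was 13.0 to 16.0 (in units of 1000000 fragments) per library.

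Of the 11933 genes, 410 were higher in c915dup than in EV and 251 were lower, which is 3.44% and 2.1% of genes tested (5.54% in all). LMX1A was among the rises. The changes were small: 84.1% of them were under 0.5 on the log2 scale, with a median of 0.32 among the rises and -0.24 among the falls. Rises of at least 1 numbered 18 and falls of that size 1. For 16.9% of genes tested, passing or not, the EV and c915dup values were fully apart (9.29% higher in c915dup, 7.58% lower). The median difference over all genes was -0.0003.

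Without the block, the spread between libraries numbered 1 and the others stayed in the error, and 130 genes passed (1.09% of genes tested, 115 higher and 15 lower). From the libraries not numbered 1 alone, 246 genes rose and 157 fell. The number 1 pair, which took no part in those calls, differed in the same direction for 228 of the 246 and for 146 of the 157, with medians of 0.36 and -0.16. Over all genes tested, 56.4% lay above 0 in that pair and 43.6% below.

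**Figure D1:**
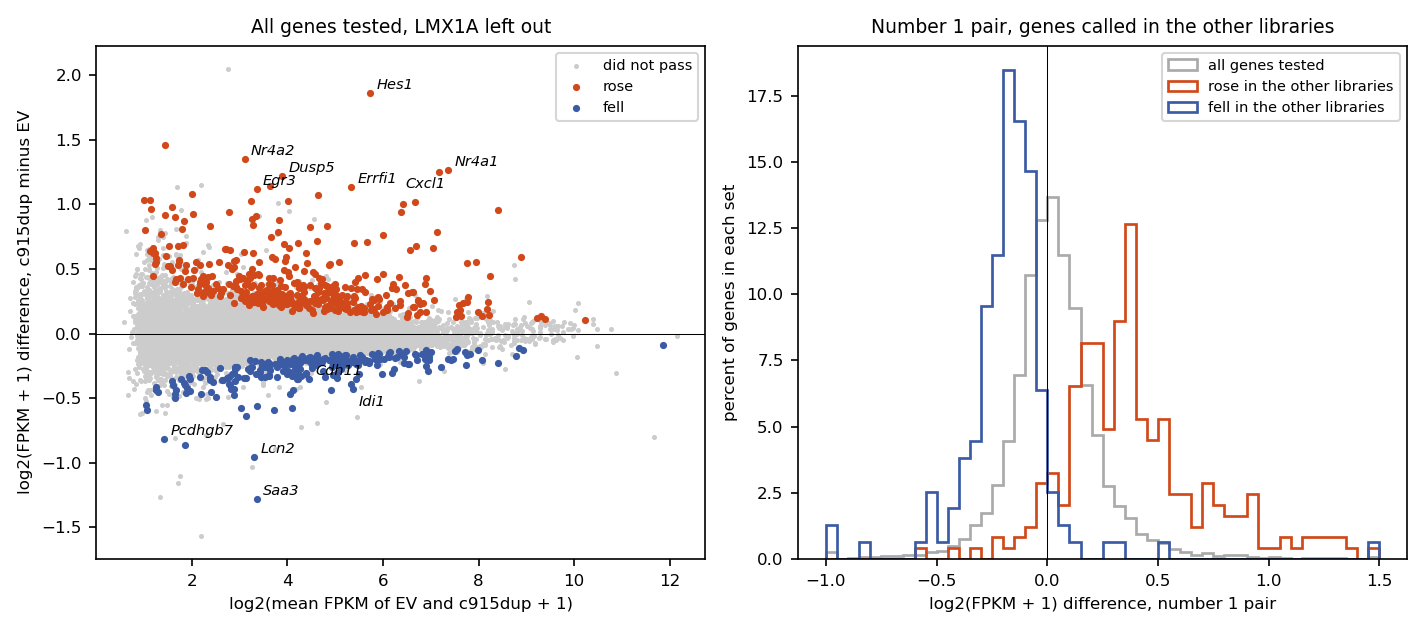
Left, the log2(FPKM + 1) difference between c915dup and EV plotted against log2 of the mean level of these 6 libraries plus 1, 1 point per gene, with genes that passed in colour. Right, the difference in the number 1 pair as percent of genes in each set, for all genes tested and for those called in the other libraries only (values beyond the axis stand in the end bins, LMX1A left out). Most of the 246 rises lie to the right of 0 and most of the 157 falls to the left.

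The promoters of 8 genes are shown because they carry sequence words of known response elements and belong to genes whose levels are described next. They were read from RefSeq (GRCm38.p6), which gave 250 bases before and 50 after a gene's start for 8826 of the 11922 gene symbols tested (the first start listed), and both strands were searched. Hes1 is named without its promoter. Capitals in Cxcl1 (chr5:90890995-90891294, plus strand), Cxcl2 (chr5:90903649-90903948, plus strand), Nfkbia (chr12:55492598-55492897, minus strand) and Steap4 (chr5:7960222-7960521, plus strand) mark matches to the NF-kB consensus, which overlap each other in Cxcl1 and in Cxcl2.
Cxcl1: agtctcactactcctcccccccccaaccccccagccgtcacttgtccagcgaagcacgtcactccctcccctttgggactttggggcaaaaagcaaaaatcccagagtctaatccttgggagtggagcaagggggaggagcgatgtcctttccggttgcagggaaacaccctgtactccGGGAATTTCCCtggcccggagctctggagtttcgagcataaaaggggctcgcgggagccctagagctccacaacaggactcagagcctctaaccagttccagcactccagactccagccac
Cxcl2: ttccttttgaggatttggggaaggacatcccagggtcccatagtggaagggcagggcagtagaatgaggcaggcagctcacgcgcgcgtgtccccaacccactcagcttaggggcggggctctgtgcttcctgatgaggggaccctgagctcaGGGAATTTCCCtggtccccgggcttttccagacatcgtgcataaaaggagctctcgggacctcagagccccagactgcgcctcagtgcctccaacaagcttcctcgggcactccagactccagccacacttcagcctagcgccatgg
Nfkbia: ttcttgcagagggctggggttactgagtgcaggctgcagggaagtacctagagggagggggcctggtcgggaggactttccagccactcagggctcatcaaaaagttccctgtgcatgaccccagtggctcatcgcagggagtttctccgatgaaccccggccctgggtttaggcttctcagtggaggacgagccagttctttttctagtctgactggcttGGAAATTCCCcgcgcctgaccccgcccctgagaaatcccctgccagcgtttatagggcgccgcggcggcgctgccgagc
Steap4: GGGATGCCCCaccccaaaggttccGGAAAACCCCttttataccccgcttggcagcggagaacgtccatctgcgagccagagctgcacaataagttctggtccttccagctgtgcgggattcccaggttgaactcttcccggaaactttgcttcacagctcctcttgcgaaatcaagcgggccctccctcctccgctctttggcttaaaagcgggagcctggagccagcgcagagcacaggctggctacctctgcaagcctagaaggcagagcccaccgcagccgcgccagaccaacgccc
Capitals in Nr4a1 (chr15:101266596-101266895, plus strand) and Nr4a2 (chr2:57123954-57124253, minus strand) mark TGACG or its reverse complement CGTCA, the core of the cAMP response element.
Nr4a1: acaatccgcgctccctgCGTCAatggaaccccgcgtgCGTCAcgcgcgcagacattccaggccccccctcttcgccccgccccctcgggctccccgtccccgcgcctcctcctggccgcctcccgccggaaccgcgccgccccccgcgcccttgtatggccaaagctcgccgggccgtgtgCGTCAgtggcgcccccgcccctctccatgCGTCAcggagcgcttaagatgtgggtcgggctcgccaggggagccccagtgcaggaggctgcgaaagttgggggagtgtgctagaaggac
Nr4a2: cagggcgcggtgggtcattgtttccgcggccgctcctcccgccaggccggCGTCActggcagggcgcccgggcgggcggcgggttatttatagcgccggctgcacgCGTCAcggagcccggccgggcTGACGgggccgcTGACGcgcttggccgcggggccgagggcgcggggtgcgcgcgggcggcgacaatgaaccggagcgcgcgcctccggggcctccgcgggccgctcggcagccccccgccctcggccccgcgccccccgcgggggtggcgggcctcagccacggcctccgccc
Capitals in Srf (chr17:46556113-46556412, minus strand) and Zfp36 (chr7:28379179-28379478, minus strand) mark CArG boxes, the element bound by the serum response factor SRF.
Srf: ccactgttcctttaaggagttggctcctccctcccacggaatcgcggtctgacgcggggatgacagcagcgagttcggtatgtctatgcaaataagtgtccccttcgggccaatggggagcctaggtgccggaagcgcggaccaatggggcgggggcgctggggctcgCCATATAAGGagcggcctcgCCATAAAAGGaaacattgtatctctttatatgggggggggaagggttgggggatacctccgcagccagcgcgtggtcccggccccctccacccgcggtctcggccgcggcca
Zfp36: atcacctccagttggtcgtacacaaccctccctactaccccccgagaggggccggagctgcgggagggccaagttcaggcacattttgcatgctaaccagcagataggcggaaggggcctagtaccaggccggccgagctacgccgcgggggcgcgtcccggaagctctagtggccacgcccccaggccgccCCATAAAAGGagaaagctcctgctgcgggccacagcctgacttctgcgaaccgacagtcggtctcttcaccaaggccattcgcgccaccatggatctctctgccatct

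An NF-kB match stood in 9 of 17 promoters found for the list of NF-kB subunits, inhibitors and chemokines (52.9%), against 4.99% of all promoters of genes tested. That list was drawn up around NF-kB, so its share says nothing about c915dup. The match was in 6.64% of promoters of genes that rose and in 4.86% of those that fell. It also stood in 4 of 10 acute-phase promoters (40%), the promoters of Steap4, which fell, and Ptx3, which rose, among them. TGACG was in 14 of 25 promoters of immediate early genes (56%), in 42.2% of those of genes that rose and in 23.2% of those that fell, against 33.7% of all. A CArG box was in 2 of the 25 (8%) against 1.29% of all. TAATTA, a core that homeodomain proteins can bind, was in 1.66% of promoters of rises and 1.62% of promoters of falls, against 2.23% of all. Of 497 NF-kB matches over all promoters, 62 overlapped another of the words searched. These shares describe letters in a window and show no binding.

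Immediate early and stimulus-induced genes rose together. Of 36 listed, 33 were tested, 24 rose and none fell, 72.7% against 3.44% of all genes tested that were higher. The median of those 33 was 0.46 beside -0.0003 over all genes. This list, like the others, was drawn up with earlier results of these data known, so its share is no independent test. The median was 0.45 in the number 1 pair and 0.51 in the other libraries. The count was 24 in all 9 fits that left out a library, and 15 passed without the block.

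The orphan nuclear receptor Nr4a1 (chromosome 15, 101254269 to 101274795) was at 99.3, 97.3 and 91.5 FPKM in EV and at 235, 231 and 232 FPKM in c915dup. Every c915dup library was above every EV library, and the difference was 1.27 ± 0.03 (limma adjusted p = 3.3e-09). Its relative Nr4a2 (chromosome 2, 57106830 to 57124003), a factor of dopaminergic neurons as well as an immediate early gene, had 4.86, 3.64 and 3.12 FPKM in EV and 13.0, 10.1 and 10.9 FPKM in c915dup. The groups did not overlap, and the difference was 1.35 ± 0.07 (adjusted p = 1.2e-06). WT stood between them, at 156 to 168 FPKM for Nr4a1 and at 6.24 to 7.12 FPKM for Nr4a2, and c915dup was above WT for each by the direct test (log2 0.53, adjusted p = 2.5e-05, and 0.70, adjusted p = 0.00068), though for Nr4a2 not without the block (adjusted p = 0.072).

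The zinc finger factors of the EGR family rose by unequal amounts. Egr2 went from 6.29, 7.02 and 7.04 FPKM to 17.3, 15.1 and 16.2 FPKM (1.14 ± 0.06, limma adjusted p = 1.6e-06). Egr3 went from 6.12, 5.15 and 5.11 FPKM to 13.9, 13.3 and 11.9 FPKM (1.12 ± 0.07, adjusted p = 2.3e-06). Egr1, the most abundant, moved from 187, 168 and 170 FPKM to 271, 248 and 251 FPKM (0.55 ± 0.03, adjusted p = 8.4e-07). None of the 3 genes overlapped between the groups, and each was higher than in WT by the direct test (adjusted p = 0.020, 0.0011 and 6.9e-05). Without the block, the difference from WT did not pass for Egr2 and Egr1 (adjusted p = 0.10 and 0.062).

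The AP-1 genes divided. Fosb rose from 215, 194 and 184 FPKM to 310, 273 and 288 FPKM (0.56 ± 0.04, limma adjusted p = 4.5e-06). Fos, the best known member, was at 360, 365 and 353 FPKM in EV and at 344, 345 and 345 FPKM in c915dup and did not pass (-0.06 ± 0.03, adjusted p = 0.24). Jun was at 93.4, 105 and 104 FPKM in EV and at 90.6, 104 and 102 FPKM in c915dup and did not pass either (-0.03 ± 0.03, adjusted p = 0.65). These 3 genes were at 159 to 181 FPKM (Fosb), 286 to 298 FPKM (Fos) and 74.2 to 88.1 FPKM (Jun) in WT, all 3 groups of values under those of EV. For each of them c915dup was higher than WT by the direct test (log2 0.78, 0.23 and 0.26, adjusted p = 3.1e-06, 0.0016 and 0.0021). Without the block that difference passed for Fosb (adjusted p = 0.0031) and not for Fos and Jun (adjusted p = 0.062 and 0.27).

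Kinases and other early genes rose with them. Sik1, a salt-inducible kinase that restrains CREB signalling, went from 16.0, 14.3 and 14.7 FPKM to 34.9, 31.6 and 31.5 FPKM (1.07 ± 0.04, limma adjusted p = 4.1e-08). Ier2 went from 57.5, 74.0 and 66.9 FPKM to 111, 150 and 146 FPKM (1.02 ± 0.04, adjusted p = 1.0e-07), with the number 1 library lowest in both groups. The polo-like kinases Plk3 (0.89 ± 0.08) and Plk2 (0.68 ± 0.04), the synaptic gene Arc (0.88 ± 0.05), Csrnp1 (0.91 ± 0.07) and the serum response factor Srf (0.63 ± 0.07) rose without overlap of the groups. Arc reached 16.9 to 18.4 FPKM in c915dup and 15.7 to 16.3 FPKM in WT, and that difference did not pass (adjusted p = 0.26). Klf2, which brings quiescence in endothelium and T cells, had 12.8 FPKM in the number 1 library of c915dup against 8.55 FPKM in that of EV, and 19.7 and 19.9 against 12.9 and 13.0 FPKM in the others. It rose in both classes of library by 0.56 ± 0.05 (adjusted p = 3.1e-05), although the 3 values of the groups overlap. Without the block Klf2, Fosl1, Ier5, Junb, Klf4, Klf6, Btg2, Zfp36 and Gadd45g did not pass (adjusted p = 0.055 to 0.63). Fos, Jun, Jund, Atf3, Klf10, Crem, Gadd45b, Rgs2 and Nab2 were tested and did not pass.

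**Figure D2:**
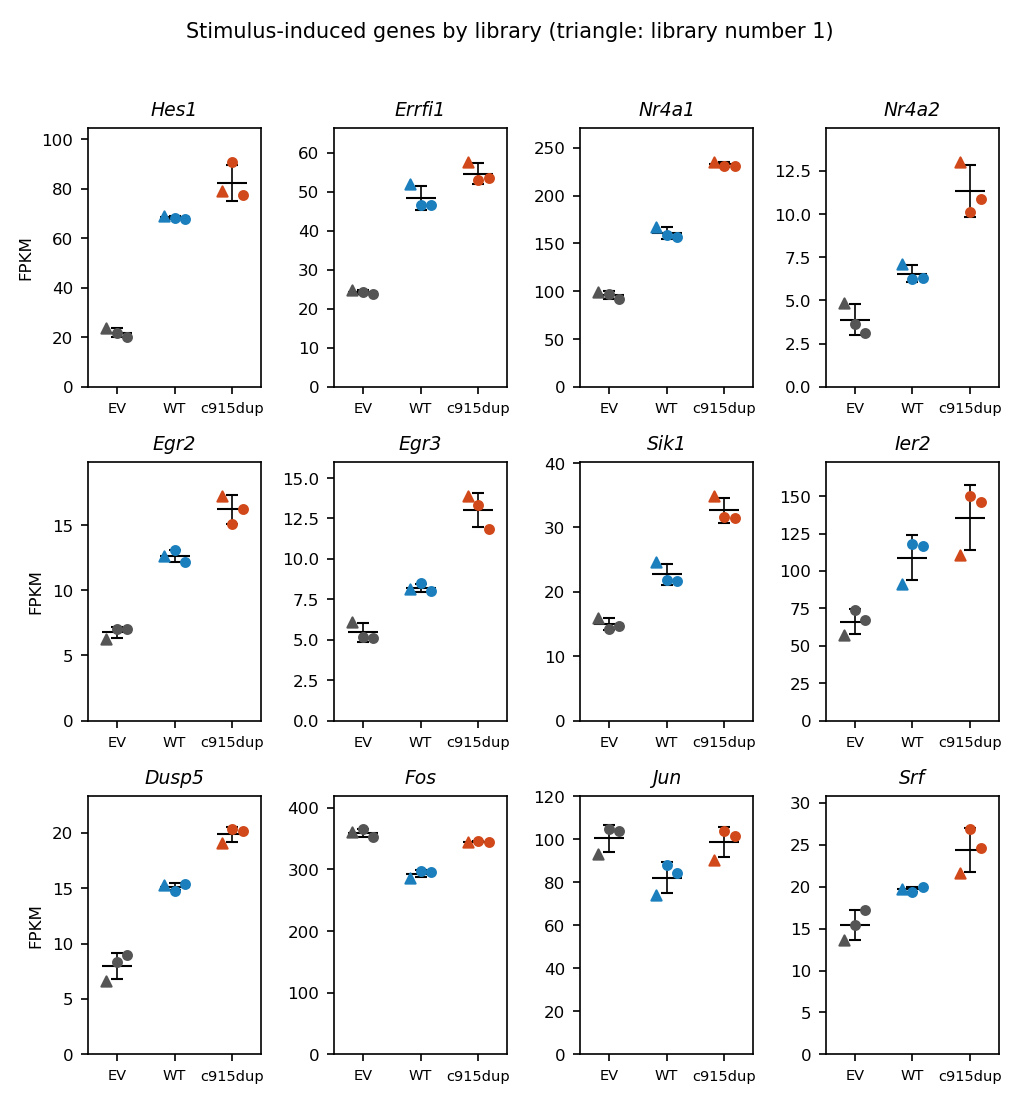
FPKM of 12 stimulus-induced genes in each library of EV, WT and c915dup, with the mean as a bar and the SD as whiskers (n = 3) and the library numbered 1 as a triangle. In 10 panels the means climb from EV through WT to c915dup, while Fos and Jun lie lowest in WT.

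Hes1 (chromosome 16, 30064384 to 30067796), a repressor that is the classical Notch target in the inner ear, had the largest difference among the genes named by size. It was at 23.9, 21.7 and 20.2 FPKM in EV and at 79.1, 90.9 and 77.4 FPKM in c915dup. The difference was 1.86 ± 0.07 (limma adjusted p = 5.8e-08), and that from WT, where it stood at 67.9 to 69.0 FPKM, missed the threshold (log2 0.26, adjusted p = 0.056). Of 23 tested, 2 rose and 1 fell (8.70% and 4.35%, against 3.44% and 2.1% of all genes), and the median was 0.02. The ubiquitin ligase gene Dtx3 rose by 0.32 ± 0.04 (adjusted p = 0.0012), while Rbpj, the DNA-binding partner of the Notch receptors, fell by 0.16 ± 0.04 (adjusted p = 0.049), a call lost without the block (adjusted p = 0.63). Notch1, Notch2, Notch3, Jag1 and Hes6 were tested and did not pass. Of the targets, Hes5, Hey1, Hey2, Heyl and Nrarp were too low to test.

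Feedback inhibitors of ERK signalling made up 5 rises and no fall among 17 tested (29.4% against 3.44% of all genes higher), with a median of 0.21. Errfi1, which binds and inhibits the EGF receptor, rose from 24.9, 24.2 and 23.8 FPKM to 57.6, 52.9 and 53.4 FPKM (1.14 ± 0.04, limma adjusted p = 1.8e-08). Dusp5, a nuclear phosphatase of ERK, rose from 6.67, 8.32 and 8.96 FPKM to 19.1, 20.3 and 20.1 FPKM (1.22 ± 0.07, adjusted p = 1.7e-06). The groups were apart for each gene, and each was also higher in c915dup than in WT (log2 0.17, adjusted p = 0.028, and 0.37, adjusted p = 0.017). Both calls against WT were lost without the block (adjusted p = 0.33 and 0.17). WT itself was above EV, at 46.4 to 52.0 FPKM for Errfi1 (log2 0.96) and at 14.8 to 15.3 FPKM for Dusp5 (0.85). With the block, 4 genes of the list were higher in WT than in EV, Dusp6 and Dusp4 among them, and 2 were higher in c915dup than in WT. Dusp6 rose by 0.56 ± 0.05, Dusp4 by 0.39 ± 0.09 and Dusp1 by 0.32 ± 0.06, of which Dusp4 and Dusp1 did not pass without the block (adjusted p = 0.13 and 0.077). Sprouty and Spred genes that could be tested (Spry2, Spred1, Spred2, Spred3) did not pass. Of the EGF family, the ligands epiregulin (Ereg, 0.65 ± 0.07, from 3.65 to 5.02 up to 6.35 to 8.29 FPKM) and Hbegf (0.55 ± 0.05, from 15.2 to 16.8 up to 23.6 to 24.6 FPKM) rose, while Egfr, Erbb2, Erbb3 and Nrg1 did not pass.

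Small Maf proteins dimerise with the CNC factors at antioxidant and stress response elements. Mafk rose from 9.05, 10.3 and 9.42 FPKM to 21.2, 20.0 and 20.4 FPKM (1.02 ± 0.06, limma adjusted p = 1.7e-06), and Maff rose by 0.65 ± 0.09 (adjusted p = 0.0016). The CNC factor Nfe2l1 fell by 0.16 ± 0.04 (adjusted p = 0.037), a call lost without the block (adjusted p = 0.25). Mafg, Nfe2l2, Bach1 and Bach2 did not pass, and none of 28 antioxidant genes tested passed (median -0.03).

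Inflammatory genes moved in opposite directions. In the list of NF-kB subunits, inhibitors and chemokines 6 of 25 rose and 2 fell (24% against 3.44% of all genes tested that were higher, and 8% against 2.1%), while in the acute-phase list 1 of 17 rose and 8 fell (5.88% and 47.1%). Their medians were 0.07 and -0.29. Without the block 5 rises and no fall remained in the former, and 6 falls in the latter.

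The neutrophil chemokine Cxcl1 (chromosome 5, 90891241 to 90893115) was at 95.1, 80.3 and 77.7 FPKM in EV and at 238, 186 and 187 FPKM in c915dup. In both groups the number 1 library was highest, and the groups lay far apart (1.26 ± 0.04, limma adjusted p = 7.2e-09). Its neighbour Cxcl2 was low throughout, at 0.207 to 0.399 FPKM in EV and 1.41 to 1.92 FPKM in c915dup (1.04 ± 0.14, adjusted p = 0.0015). It reached 1 FPKM only in the c915dup libraries and in WT replicate 1 (1.20 FPKM). It thus entered the test, and the count of rises, only through libraries where it was high, which favoured a rise. Ccl2, a monocyte chemokine, rose by 0.38 ± 0.03 (adjusted p = 5.7e-05), but its values overlap between the groups and it did not pass without the block (adjusted p = 0.37).

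Inhibitors of NF-kB rose as well. Nfkbia, the gene of the IkB alpha protein that holds NF-kB in the cytoplasm (chromosome 12, 55489410 to 55492647), went from 54.4, 58.7 and 55.3 FPKM to 112, 114 and 114 FPKM (1.00 ± 0.04, limma adjusted p = 4.1e-08). The nuclear IkB gene Nfkbiz went from 236, 231 and 222 FPKM to 443, 451 and 445 FPKM (0.96 ± 0.03, adjusted p = 1.1e-08). Each was also higher than in WT, by 0.56 (adjusted p = 3.3e-05) and 0.48 (adjusted p = 2.5e-05), and no EV value reached a c915dup value. The ubiquitin-editing gene Tnfaip3 rose by 0.52 ± 0.07 (adjusted p = 0.0026), and the signalling kinase Irak2, which is outside the list, by 1.03 ± 0.13 (adjusted p = 0.0026). Subunits of the factor itself, Nfkb1, Nfkb2, Rela, Relb and Rel, did not pass. Vcam1 and the stromal chemokine Cxcl12 fell by 0.19 ± 0.04 and by 0.29 ± 0.03 (adjusted p = 0.011 and 0.00068), calls lost without the block (adjusted p = 0.47 and 0.27).

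Saa3 (chromosome 7, 46711998 to 46715700), the acute-phase serum amyloid of mouse macrophages and fat, fell from 13.2, 14.1 and 13.2 FPKM to 4.33, 5.78 and 4.85 FPKM (-1.28 ± 0.10, limma adjusted p = 3.1e-05). Lcn2 (chromosome 2, 32384633 to 32388252), a lipocalin that withholds iron from bacteria, fell from 12.2, 13.0 and 10.9 FPKM to 6.45, 5.51 and 5.23 FPKM (-0.96 ± 0.07, adjusted p = 2.1e-05). For both genes all c915dup libraries were under all EV libraries. In bulk RNA, fewer cells that express a gene and less RNA of it per cell cannot be told apart.

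The inducible nitric oxide synthase Nos2 fell from 9.45 to 10.3 FPKM to 5.43 to 6.33 FPKM (-0.64 ± 0.07), and complement C3 from 8.68 to 9.04 FPKM to 5.48 to 5.73 FPKM (-0.58 ± 0.06). Steap4, a metalloreductase, fell by 0.59 ± 0.06 and the lipopolysaccharide-binding protein gene Lbp by 0.56 ± 0.06. All 4 passed in limma (adjusted p = 0.00014 to 0.00052) with no overlap of the groups. The WT libraries held 3.53 to 5.35 FPKM of Saa3, 6.75 to 6.88 FPKM of Lcn2, 4.95 to 5.30 FPKM of Nos2 and 5.85 to 6.13 FPKM of C3, and for these 4 the difference between c915dup and WT did not pass (adjusted p = 0.12 to 0.41). Pentraxin 3 (Ptx3), at 101, 106 and 100 FPKM in EV, was at 110, 116 and 119 FPKM in c915dup and rose by 0.17 ± 0.04 (adjusted p = 0.028), a call lost without the block (adjusted p = 0.26). The summed level of the 16 immune cell markers was 3.57 to 4.65 FPKM in EV and 3.89 to 4.70 FPKM in c915dup, and 5 of them were listed at 0 in all libraries.

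**Figure D3:**
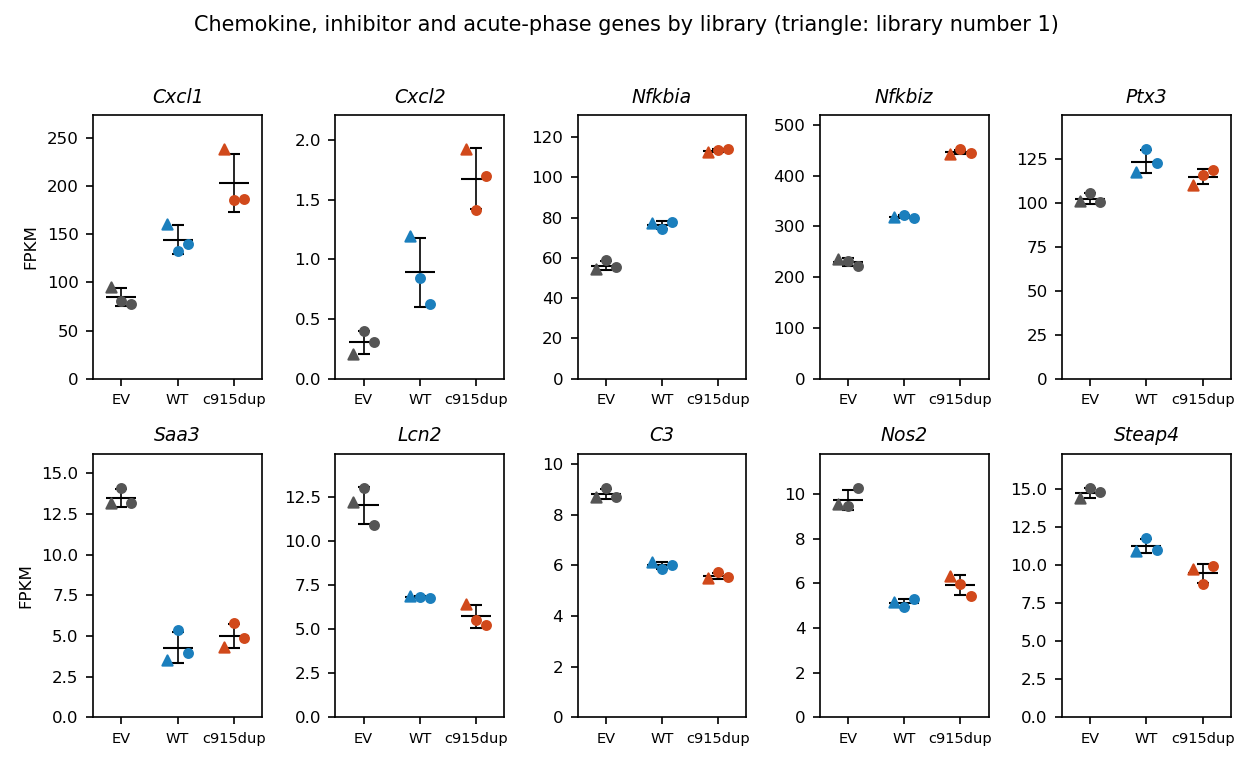
FPKM of 10 chemokine, NF-kB inhibitor and acute-phase genes in each library of EV, WT and c915dup, with mean and SD (n = 3) and the library numbered 1 as a triangle. Cxcl1, Cxcl2, Nfkbia and Nfkbiz climb in their means from EV through WT to c915dup, whereas WT and c915dup both lie under EV for Saa3, Lcn2, C3 and Nos2.

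Ligands of the IL-6 family and their receptors also parted. The cytokines Clcf1 (0.69 ± 0.05, from 10.2 to 11.1 up to 17.6 to 18.3 FPKM) and Lif (0.56 ± 0.07, from 4.82 to 5.27 up to 7.75 to 7.97 FPKM) and the kinase Pim1 (0.84 ± 0.06, from 18.3 to 20.8 up to 34.4 to 36.2 FPKM) rose. Socs3, a feedback inhibitor, rose by 0.21 ± 0.05. The shared receptor chain Il6st fell by 0.16 ± 0.03, Osmr by 0.21 ± 0.05 and Lifr by 0.33 ± 0.07. The 4 rises and 3 falls are among 18 tested (22.2% and 16.7%, against 3.44% and 2.1% of all genes, median 0.12), and Socs3 and the 3 receptors did not pass without the block (limma adjusted p = 0.082 to 0.62). The list held 3 or 4 calls when EV replicate 1, 2 or 3 or c915dup replicate 3 or 4 was left out. Among 41 interferon response genes 7 rose and 1 fell (17.1% and 2.44%, against 3.44% and 2.1% of all genes), with a median of 0.02. None was higher than in WT and 4 were lower, among them Isg15 (-0.16, limma adjusted p = 0.036, without the block 0.29). Rsad2 (0.50 ± 0.06) and Cxcl10 (0.37 ± 0.05) also passed without the block, and the others did not. That list held 3 or 4 calls without EV replicate 1, 2 or 3 or c915dup replicate 3 or 4.

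Genes of sterol synthesis and uptake were mostly lower. Of 27 tested, 15 fell and 1 rose (55.6% and 3.70%, against 2.1% and 3.44% of all genes). The median was -0.19, which was -0.15 in the number 1 pair and -0.20 in the other libraries. The falls were all under 0.5 on the log2 scale, and they included both early and late steps. Cyp51 (chromosome 5, 4081145 to 4104746), the lanosterol demethylase, was at 81.4, 79.8 and 77.6 FPKM in EV and at 66.9, 62.1 and 64.0 FPKM in c915dup, without overlap (-0.30 ± 0.03, limma adjusted p = 0.00041). It stood at 76.1 to 78.5 FPKM in WT and was lower in c915dup by the direct test (-0.26, adjusted p = 0.0022, without the block 0.062).

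Idi1, the isopentenyl diphosphate isomerase (chromosome 13, 8885501 to 8892451), showed the largest fall of the list, -0.43 ± 0.07 (limma adjusted p = 0.0061). Its number 1 libraries, 53.5 FPKM in EV and 43.8 FPKM in c915dup, were higher than the others, 43.5 and 41.1 FPKM against 28.7 and 30.4 FPKM, so that the groups overlap while each class fell. Hmgcs1, the synthase of the mevalonate pathway, went from 243, 227 and 220 FPKM to 215, 182 and 186 FPKM (-0.24 ± 0.04, adjusted p = 0.0035). The sterol carrier Stard4 went from 51.4, 46.0 and 45.7 FPKM to 42.6, 34.2 and 35.0 FPKM (-0.35 ± 0.05, adjusted p = 0.0013). Mvk, Mvd, Fdps, Sqle, Lss, Msmo1, Nsdhl, Hsd17b7, Sc5d and Acat2 fell by 0.17 to 0.27.

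The factor gene Srebf2 did not pass (-0.08 ± 0.03, limma adjusted p = 0.16), nor did Insig1 and Scap. Of the 15 falls, only Cyp51 passed without the block. The list held 8 to 10 calls when EV replicate 1 or 2 or any c915dup replicate was left out, and 13 in the libraries not numbered 1. By the direct test 7 genes of the list were lower than in WT, among them Hmgcs1, Fdps, Sqle, Cyp51, Nsdhl and Stard4, which did not pass against WT without the block (adjusted p = 0.062 to 0.33), and no gene of the list passed between WT and EV.

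Fatty acid synthesis moved the same way, with 7 falls and no rise among 17 tested (41.2% against 2.1% of all genes lower, median -0.14). Acaca, the acetyl-CoA carboxylase, went from 20.5, 19.9 and 18.3 FPKM to 17.1, 13.9 and 14.4 FPKM (-0.35 ± 0.05, limma adjusted p = 0.0031), against 18.9 to 20.7 FPKM in WT. The elongase Elovl6 (-0.35 ± 0.05), Acly (-0.24 ± 0.03), Fasn (-0.24 ± 0.05), the desaturases Scd2 (-0.23 ± 0.03) and Fads2 (-0.23 ± 0.04) and Fads1 (-0.14 ± 0.03) fell as well. None of the 7 passed without the block (adjusted p = 0.054 to 0.28), while 8 members passed in the libraries not numbered 1 alone. In that list, 6 genes were lower than in WT, among them Fasn, Acaca, Acly, Scd2 and Fads2, which did not pass against WT without the block (adjusted p = 0.15 to 0.31).

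**Figure D4:**
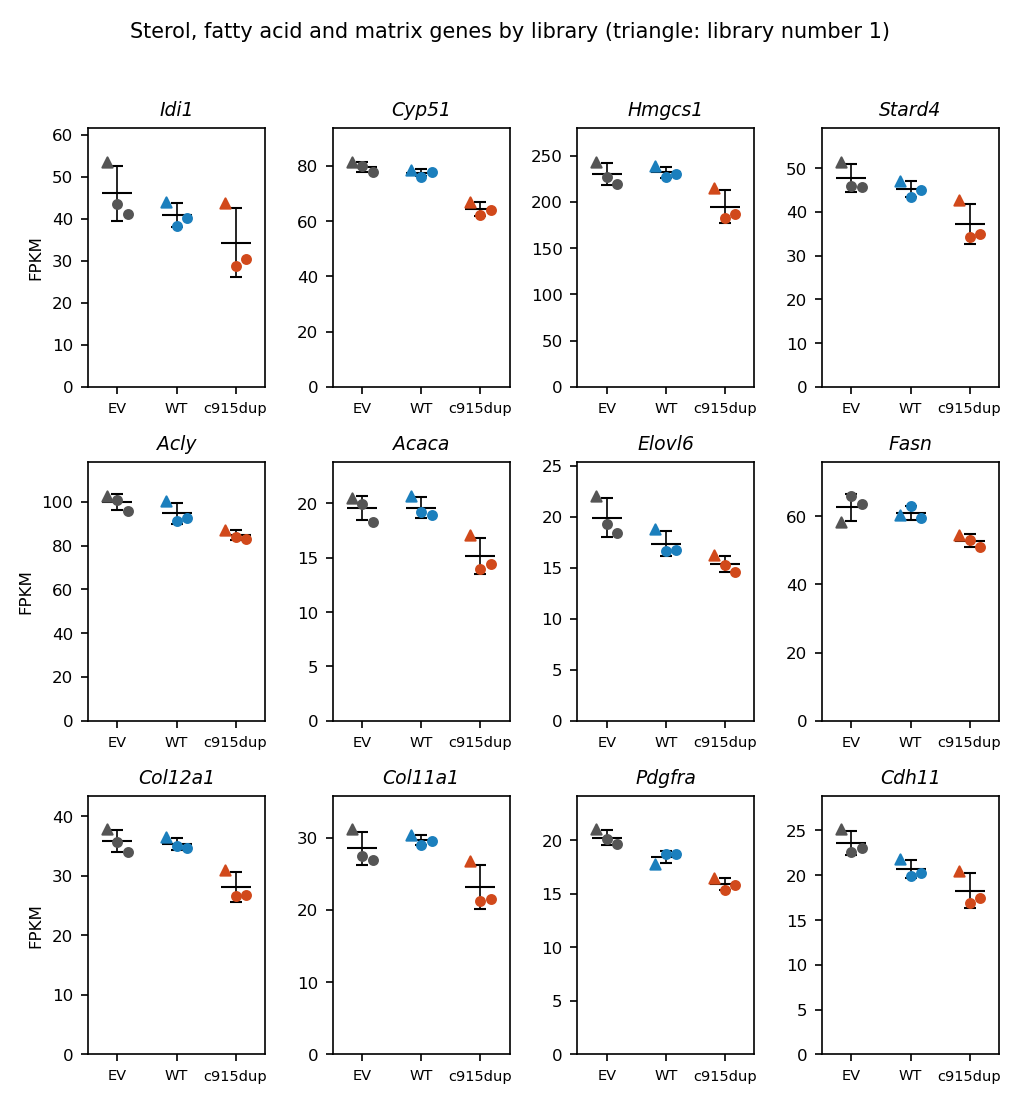
FPKM of 12 sterol, fatty acid, collagen and mesenchymal genes in each library of EV, WT and c915dup, with mean and SD (n = 3) and the library numbered 1 as a triangle. For Cyp51, Acaca, Col12a1 and Col11a1 the WT libraries lie with EV and those of c915dup lie under both.

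Of 20 collagen genes, 5 fell and 1 rose (25% and 5%, median -0.11), and of 28 other matrix genes 5 fell and none rose (17.9%, median -0.13), against 2.1% of all genes lower and 3.44% higher. Col12a1, a fibril-associated collagen (chromosome 9, 79598991 to 79718831), went from 37.8, 35.8 and 34.0 FPKM to 31.0, 26.6 and 26.8 FPKM (-0.34 ± 0.04, limma adjusted p = 0.0011), with WT at 34.7 to 36.5 FPKM. Col11a1, a fibrillar collagen of cartilage and of the inner ear's tectorial membrane, went from 31.2, 27.5 and 27.0 FPKM to 26.8, 21.3 and 21.6 FPKM (-0.29 ± 0.05, adjusted p = 0.0095). In each gene c915dup lay under EV without overlap and under WT by the direct test (-0.32, adjusted p = 0.0028, and -0.35, adjusted p = 0.0055), calls against WT lost without the block (adjusted p = 0.11 and 0.20).

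Col1a2, a chain of type I collagen, rose from 206, 200 and 187 FPKM to 245, 230 and 228 FPKM (0.24 ± 0.04, limma adjusted p = 0.0044), whereas its partner Col1a1 fell from 478, 540 and 513 FPKM to 443, 481 and 475 FPKM (-0.13 ± 0.03, adjusted p = 0.029), with overlap of the groups. Emilin1, Thbs2, Nid1, Tnc and Matn2 fell by 0.28 to 0.16. The crosslinking enzyme Lox (-0.26 ± 0.04) and the collagenase Mmp2 (-0.20 ± 0.04) fell, while the urokinase Plau (0.40 ± 0.05) and its receptor Plaur (0.45 ± 0.07) rose. Without the block no member of the collagen and noncollagen matrix lists passed, nor did Lox and Mmp2 (adjusted p = 0.39 and 0.25), while Plau and Plaur passed (adjusted p = 0.012 and 0.035). The collagens held 2 or 3 calls without EV replicate 1 or 2 or c915dup replicate 3 or 4, and the other matrix genes 3 without EV replicate 2 or 3, WT replicate 2 or 3 or c915dup replicate 3 or 4. Against WT, 7 collagens and 10 other matrix genes were lower in c915dup.

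Of 19 mesenchymal genes tested 3 fell and none rose (15.8% against 2.1% of all genes lower), with a median of 0.03. Pdgfra, the PDGF receptor alpha, went from 21.0, 20.1 and 19.6 FPKM to 16.5, 15.4 and 15.8 FPKM (-0.33 ± 0.05, limma adjusted p = 0.0027), and cadherin 11 (Cdh11) from 25.1, 22.6 and 23.1 FPKM to 20.5, 16.9 and 17.4 FPKM (-0.35 ± 0.05, adjusted p = 0.0013). Both genes were apart between the groups, and Cdh11 did not pass without the block (adjusted p = 0.088). Fgf7 fell by 0.21 ± 0.04 and likewise lost its call without the block (adjusted p = 0.60). The other 16, Vim, Twist1, Snai2 and Prrx1 among them, did not pass. Npr3, the clearance receptor of natriuretic peptides (chromosome 15, 11839896 to 11907287), had 14.5, 13.9 and 14.6 FPKM in EV and 11.2, 11.3 and 11.0 FPKM in c915dup, but 16.3 to 16.6 FPKM in WT. It fell by 0.34 ± 0.05 against EV (adjusted p = 0.0018) and by 0.52 against WT (adjusted p = 0.0002).

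Among 27 TGF-beta and YAP targets 5 rose and 2 fell (18.5% and 7.41%, against 3.44% and 2.1% of all genes), with a median of 0.05. Ankrd1, a muscle repeat protein induced by YAP, rose from 59.9, 54.1 and 53 FPKM to 117, 104 and 102 FPKM (0.94 ± 0.03, limma adjusted p = 3.3e-08), Ccn2 by 0.70 ± 0.04, Ccn1 by 0.59 ± 0.02 and Thbs1 by 0.33 ± 0.03. The receptors Tgfbr2 and Tgfbr3 fell by 0.20 ± 0.04 and by 0.19 ± 0.05. The smooth muscle genes Tagln (0.60 ± 0.10), Myl9 (0.45 ± 0.07) and Acta2 (0.35 ± 0.04) and the focal adhesion gene Zyx (0.32 ± 0.04) rose, and the nonmuscle myosin Myh9 fell by 0.15 ± 0.03. These are 4 rises and 1 fall among 24 contractile genes tested (16.7% and 4.17%), with a median of 0.01. Ankrd1 and Ccn1 were higher than in WT (adjusted p = 6.9e-05 and 0.0011, without the block 0.045 and 0.062), while no contractile gene was and 2 were lower. Tagln, Myl9, Acta2 and Zyx were also higher in WT than in EV with the block, and none of these 4 passed between c915dup and WT. Against EV, Tgfbr2, Tgfbr3, Zyx and Myh9 did not pass in c915dup without the block (adjusted p = 0.062 to 0.28). In the BMP list, Id1, a target of BMP receptors, rose from 33.1, 39.1 and 40.3 FPKM to 53, 72.1 and 61.3 FPKM (0.71 ± 0.05, adjusted p = 2.2e-05), with Smad7 (0.40 ± 0.06) and Id3 (0.26 ± 0.04), and the ligand Bmp4 and the activin trap Fst fell (-0.29 ± 0.06 and -0.34 ± 0.07, without the block adjusted p = 0.21 and 0.16). The BMP list held 4 rises and 2 falls among 21 tested (19.0% and 9.52%, against 3.44% and 2.1% of all genes), with a median of -0.04. It held 3 calls without EV replicate 2.

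Glucose and clock genes held further changes. The glucose transporter Slc2a1 rose from 28.4, 26.1 and 28.4 FPKM to 37.5, 34.6 and 33.9 FPKM (0.34 ± 0.04, limma adjusted p = 0.0011), and the enolase Eno2 from 55.2, 50.3 and 51.8 FPKM to 71.8, 74.3 and 72.2 FPKM (0.46 ± 0.04, adjusted p = 6.6e-05). WT had 26.8 to 29.6 FPKM of Slc2a1 and 47.2 to 51.4 FPKM of Eno2, both under c915dup by the direct test (adjusted p = 0.0028 and 5.5e-05), Slc2a1 not without the block (adjusted p = 0.077). Pfkfb3, which makes the activator of phosphofructokinase, fell from 5.29 to 6.07 FPKM to 3.45 to 3.90 FPKM (-0.49 ± 0.07, adjusted p = 0.0032). In all, 4 of 22 glycolysis genes rose and 1 fell (18.2% and 4.55%, against 3.44% and 2.1% of all genes), and 2 of these rises and the fall passed without the block. Of 24 hypoxia genes 7 rose (29.2%), 2 of them also without the block, Vegfa by 0.37 ± 0.05, while Hif1a fell by 0.20 ± 0.05 (adjusted p = 0.043, without the block 0.44). The hypoxia list held 3 to 5 calls without EV replicate 1 or 3 or any c915dup replicate, and the glycolysis list 3 without EV replicate 1 or 3 or c915dup replicate 3. The clock repressor Per1, also a CREB target, rose from 8.07 to 8.70 FPKM to 13.6 to 16.1 FPKM (0.75 ± 0.06, adjusted p = 3.1e-05), against 8.80 to 10.1 FPKM in WT (adjusted p = 0.00049). Nfil3 (0.64 ± 0.07), Nr1d1 (0.39 ± 0.07) and, among the hypoxia genes, Bhlhe40 (0.76 ± 0.05) rose too, and Nr1d1 did not pass without the block (adjusted p = 0.085). The clock list held 3 rises and no fall among 18 tested (16.7% against 3.44% of all genes higher), and 15 did not pass. Its median was 0.11, with members from -0.50 to 0.75.

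**Figure D5:**
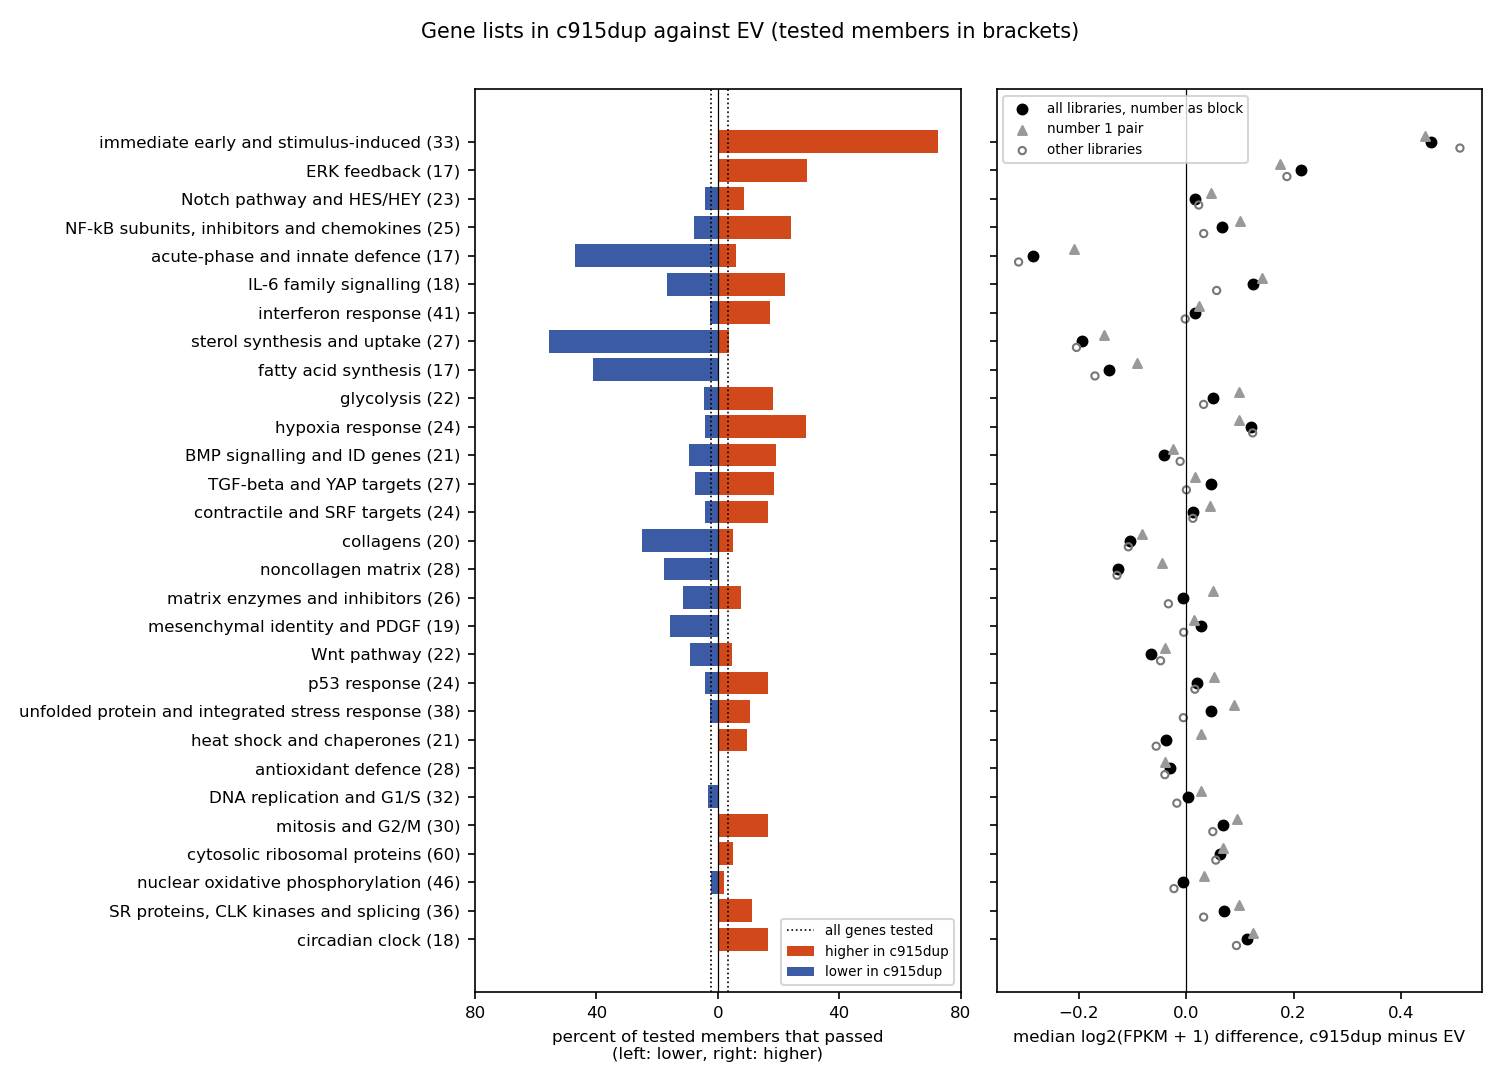
Left, percent of the tested members of each list that passed as higher (right of 0) or lower (left of 0) in c915dup than in EV, for lists with at least 15 tested members, with dotted lines at the share of all genes tested. Right, the median log2(FPKM + 1) difference of each list over all libraries, in the number 1 pair and in the other libraries. Immediate early genes stand at the right of both panels, and acute-phase, sterol and fatty acid genes at the left.

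Of 60 cytosolic ribosomal protein genes 3 rose and none fell (5%, median 0.06), and of 46 nuclear oxidative phosphorylation genes 1 rose and 1 fell (2.17% each). Of 32 replication genes 1 fell, Mcm6 (-0.16 ± 0.03), which is 3.1%. These shares lay near those of all genes tested, 3.44% higher and 2.1% lower. None of 13 mitochondrially encoded genes passed, although their median was 0.24, and their levels followed the library number (mt-Nd2 was at 934 FPKM in EV replicate 1 and at 93.3 and 127 FPKM in the other EV libraries). Mitotic genes had 5 rises of 30 (16.7% against 3.44% of all genes higher), Cdk1, Cdc25b, Kif23, Ube2c and Foxm1, by 0.17 to 0.25, none of which passed without the block. Leaving out EV replicate 1, 2 or 3, WT replicate 2 or c915dup replicate 1 or 3 left 1 to 3 mitotic calls, and leaving out any EV library or c915dup replicate 1 or 3 left 0 or 1 ribosomal call. Among LIM-homeodomain and LDB genes none of 8 tested passed, and Ldb1, the cofactor of LMX1A, was at 35.0, 34.9 and 34.0 FPKM in EV and 40.2, 41.6 and 37.4 FPKM in c915dup (0.19 ± 0.05, limma adjusted p = 0.071). Ldb1 was higher than in WT by the direct test (log2 0.30, adjusted p = 0.014), but not without the block (adjusted p = 0.15). Of the midbrain dopaminergic list Th, Slc6a3 and Foxa2 were listed at 0 in all libraries and only Nr4a2 rose among 3 tested. Stmn2, a neuronal growth gene, rose from 4.07 to 5.01 FPKM to 6.56 to 7.30 FPKM (0.53 ± 0.08, adjusted p = 0.0037), the 1 of 6 neuronal markers tested that passed (16.7% against 3.44% of all genes higher). WT held 6.98 to 8.20 FPKM of Stmn2 and was also above EV (log2 0.63, adjusted p = 0.0023). The difference between c915dup and WT did not pass (adjusted p = 0.52).

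Outside the lists, several of the genes with large differences were also known for induction by outside signals. They were picked after their values were seen, except Apol8, Pygm, Pcdhgb7 and Plac8, which the rule by size named. The serum- and glucocorticoid-induced kinase Sgk1 rose from 103, 101 and 100 FPKM to 178, 177 and 174 FPKM (0.79 ± 0.03, limma adjusted p = 4.1e-08). Ptgs2, the inducible cyclooxygenase, rose from 35.7, 29.2 and 28.7 FPKM to 61.2, 46.6 and 46.5 FPKM (0.70 ± 0.05, adjusted p = 1.0e-05), and the insulin receptor substrate Irs2 from 5.83 to 6.26 FPKM to 11.3 to 11.7 FPKM (0.84 ± 0.05, adjusted p = 4.6e-06). All 3 were higher than in WT as well (adjusted p = 3.3e-05, 0.0088 and 0.041), but without the block only Sgk1 was (adjusted p = 0.0031, against 0.42 for Ptgs2 and 0.18 for Irs2). Apol8 (0.93 ± 0.12) and the glycogen phosphorylase of muscle, Pygm (0.90 ± 0.12), rose from low levels. Of the falls, the protocadherin Pcdhgb7 (-0.82 ± 0.14) and Plac8 (-0.58 ± 0.08) were among the largest, and neither passed without the block (adjusted p = 0.22 and 0.079).

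The relation of these changes to the wild type was read from the direct difference between c915dup and WT, in which 574 genes passed with the block (4.81% of genes tested, 3.13% higher and 1.68% lower in c915dup) and 27 without it. Of the 410 rises over EV, 181 were also higher than in WT, 2 were lower and 227 did not pass. Of the 251 falls, 85 were also lower than in WT and 166 did not pass. The mean of WT lay between those of EV and c915dup for 315 of the rises and 187 of the falls. These genes were selected because EV and c915dup differ, which alone places many WT means between them, and no baseline share was computed. Between WT and EV, 145 genes passed (1.22%), 0.804% higher in WT and 0.411% lower. These comparisons share libraries and are not independent of each other.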

How the data were processed

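RNA was extracted with Trizol from HEI-OC1 cells and sequenced after a TruSeq preparation, per the labels' protocols. The submitters' processing notes name CASAVA 1.8, Trimmomatic, FastQC, HISAT2, RSEM and edgeR and the build GRCm38, whereas TopHat, Cufflinks and BWA are named in the description of the design, and no source says which of these tools made the table. The authors deposited 1 table of FPKM per gene and library, a unit inferred from the values since no header names it, so no counts were tested. Depth was estimated from the steps of low values (13.0 to 16.0 in units of 1000000 fragments) and carries no interval. Groups came from the labels. From log2(FPKM + 1), limma 3.58.1 (R 4.3.3) fitted 3 group means and the block over all 9 libraries, with trended, robust moderation and Benjamini-Hochberg adjustment over 11933 genes.

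Libraries numbered 1 deviated together from their group means (r = 0.621 to 0.656 between groups) and libraries with other numbers did so less (r = 0.235 to 0.424), while number 1 went against the others (r = -0.499 to -0.38). Because deviations cancel out within a group, the later ranges follow in part by arithmetic from the first. The labels do not say what the number marks.

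The named genes were, per direction, the 20 largest differences that passed without overlap of the groups, LMX1A, and up to 6 members per list by p, or the 1 of smallest p where none passed. Further members and genes were added after their values were seen. Members and lists were chosen with earlier results of these data known. Promoters came from RefSeq. Python 3.11.15 and matplotlib 3.10.9 drew the figures. Results of some genes are not reported here.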

Additional observations from a re-analysis of the deposited data

How the results depend on the processing

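The 661 genes that differed between c915dup and EV (410 higher, 251 lower) depended most on the replicate block. Without it 130 passed (115 higher, 15 lower), and all 130 were among the 661. With no filter on low values 204 passed (154 higher, 50 lower), and from the libraries not numbered 1 alone 403 did (246 higher, 157 lower). Plain moderation left 157 lower genes, and quantile normalisation gave 411 higher and 402 lower, which took the share of higher genes from 62.0% to 50.6%. Leaving out 1 library at a time gave 318 to 825 genes in all, 223 to 497 higher and 87 to 328 lower. The total was 318, 378 and 356 without EV replicate 1, 2 and 3, and 348 and 360 without c915dup replicate 3 and 4. Higher genes numbered 223 and 241 without EV replicate 1 and 3, and 273, 251 and 267 without c915dup replicate 1, 3 and 4. Lower genes numbered 95, 87 and 115 without EV replicate 1, 2 and 3, and 97 and 93 without c915dup replicate 3 and 4. Of the 661, 229 passed in all 9 of these fits. The difference between c915dup and WT gave 27 genes without the block, 77 without a filter, 349 without the number 1 libraries and 209 with plain moderation, and 197 to 490 with 1 library left out. It gave 370, 226 and 234 without WT replicate 1, 2 and 3, and 324, 198 and 197 without c915dup replicate 1, 3 and 4. That between WT and EV gave 42, 44, 83 and 91 genes under the same settings, and 78 to 166 (78 and 91 without EV replicate 1 and 3, 87 without WT replicate 2). Of 217 named genes, 124 lost their call without the block, and none that had passed changed direction under any setting run. Dropping the block, changing the filter or moderation, or leaving out WT libraries does not alter a gene's difference between c915dup and EV. Under those settings its direction could not change. The cause of these changes was not tested. Fold changes of genes near 1 FPKM are the least certain.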

Other observations

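Other lists held few calls, given here as counts of tested genes with the median log2 difference, and to be read against 3.44% of all genes higher and 2.1% lower. Of 24 p53 response genes 4 rose and 1 fell (16.7% and 4.17%, median 0.02). The rises were Mdm2, Ddb2, Gadd45a and Sesn2, the fall was Ccng1, and none passed without the block. Of 38 genes of the unfolded protein and integrated stress responses 4 rose and 1 fell (10.5% and 2.63%, median 0.05). Trib3, Atf5, Ddit3 and Slc3a2 rose and the chaperone Hspa5 fell, and only Trib3 passed without the block. The p53 list held 2 or 3 calls without EV replicate 1 or 3 or c915dup replicate 3, and the stress response list 1 to 3 without EV replicate 1 or 2 or c915dup replicate 3 or 4 and 9 without WT replicate 1. Of 36 splicing genes 4 rose (11.1%, median 0.07), 1 of them also without the block, Srsf11 from 108, 96.5 and 98.2 FPKM to 150, 128 and 132 FPKM (0.43 ± 0.05, limma adjusted p = 0.00042). Of 22 Wnt genes Myc rose (0.38 ± 0.05), and Ctnnb1 and Sfrp2 fell (-0.12 ± 0.03 and -0.44 ± 0.07), 4.55% and 9.09%, and both falls were lost without the block (limma adjusted p = 0.27 and 0.15). Of 21 heat shock genes Dnajb1 and Dnajb4 rose (9.52%), neither without the block, and the list held no call when any EV or c915dup library was left out. None of 11 histone genes passed.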
